A study of Bos grunniens with 18 samples.

Results

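The DNAJ co-chaperone family was followed in yak testis at 3 ages. Its members were taken as every row of the deposited gene table whose symbol is DNAJA, DNAJB or DNAJC followed by a number and, in some, a letter. That rule found 54 identifiers carrying 44 symbols among the 22183 genes of the table. Of these, 47 identifiers, covering all 44 symbols, passed the filter on low counts and were tested, as were 16742 genes in all. Of the 7 that were not, 4 (3 named DNAJA1 and 1 named DNAJA2) had no count in any library, and second identifiers of DNAJC2, DNAJC11 and DNAJC19 had at most 9 counts in a library. DNAJB3 was not analysed here.

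DNAJ proteins carry a J domain, a short helical module with a conserved HPD tripeptide that binds HSP70 chaperones and stimulates their ATPase. This locks a client polypeptide onto HSP70, and nucleotide exchange factors then release it. Class A and B members can also hold clients themselves, whereas class C members share little beyond the J domain and place HSP70 at particular sites, such as the mitochondrial import motor, clathrin coats, the lumen of the endoplasmic reticulum, the ribosome or the sperm axoneme. Several members are known from male germ cells of mouse and human.

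The study took testis tissue at castration from 9 healthy male yaks of one cooperative, 3 at 6 months, 3 at 18 months and 3 at 4 years of age. The labels name no other treatment. Ribosomal RNA was removed from total RNA and the libraries were sequenced in pairs of reads. The ages are those of the sample titles and of the treatment description, since a further label calls the 4-year samples infancy, the 6-month samples adolescence and the 18-month samples adulthood, and that label was not used. Whole tissue was sequenced, so fewer cells of a type and less RNA per cell cannot be told apart.

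The libraries held 22950630 to 33123856 estimated counts. Levels below are CPM, the counts of a gene relative to the scaled library size, and levels of different genes are compared only in FPKM, which is per length. The tissue carried the defining markers of testis. The summed level of 7 markers of haploid germ cells was 1.82 to 3.52 CPM at 6 months, 125 to 1915 CPM at 18 months and 2068 to 2606 CPM at 4 years. That of 6 meiotic markers was 6.67 to 15.1, 434 to 874 and 829 to 936 CPM at the same ages, and every one of these markers was called higher at 4 years than at 6 months. Markers of Sertoli cells (6) summed to 4976 to 5618, 402 to 1263 and 332 to 384 CPM, and 8 identifiers of Leydig cell markers summed to 14946 to 21601, 2531 to 5817 and 2408 to 4326 CPM. The 18-month libraries stood apart from each other: replicate 2 gave the 125 CPM of haploid markers, replicate 3 gave 780 CPM and replicate 1 gave 1915 CPM. Markers of interstitial and myoid cells (6) summed to 176 to 191 CPM at 4 years and 1273 to 1664 CPM at 6 months. The sums of the markers of endothelium (4) and spermatogonia (5) were also lower in every library of 4 years. Single markers went both ways at 4 years against 6 months. For Sertoli cells 1 was called higher and 5 lower. For interstitial and myoid cells 1 was higher and 4 lower, and for spermatogonia 1 was higher and 2 lower. Markers of macrophages, on 10 identifiers, summed to 198 to 235 CPM at 4 years and 68.8 to 92.9 CPM at 6 months. Of the 9 macrophage identifiers tested, 6 were called higher and 2 lower. The part of any of these marker differences in the results on DNAJ genes was not tested.

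At 4 years against 6 months, 24 of the 47 tested DNAJ identifiers were higher and 8 were lower at an adjusted p under 0.05 (edgeR quasi-likelihood F-test, Benjamini-Hochberg over all genes tested), and 15 were not called. Of all genes tested, 36.7% were called higher and 37.2% lower, against 51.1% and 17.0% of the DNAJ identifiers. The median log2 fold change was 0.68 over the DNAJ identifiers and -0.06 over all genes. Libraries of these ages did not overlap for 37 of the 47 identifiers, or 78.7%, and for 83.0% of all genes. With a change of at least 2-fold as well, 21 DNAJ identifiers were higher and 6 lower, or 44.7% and 12.8%, where 31.5% of all genes were higher and 30.2% lower. The 24 gained identifiers belong to 22 symbols and the 8 lost identifiers to 8 symbols. Gained and lost are used below for these calls only.

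**Figure D1:**
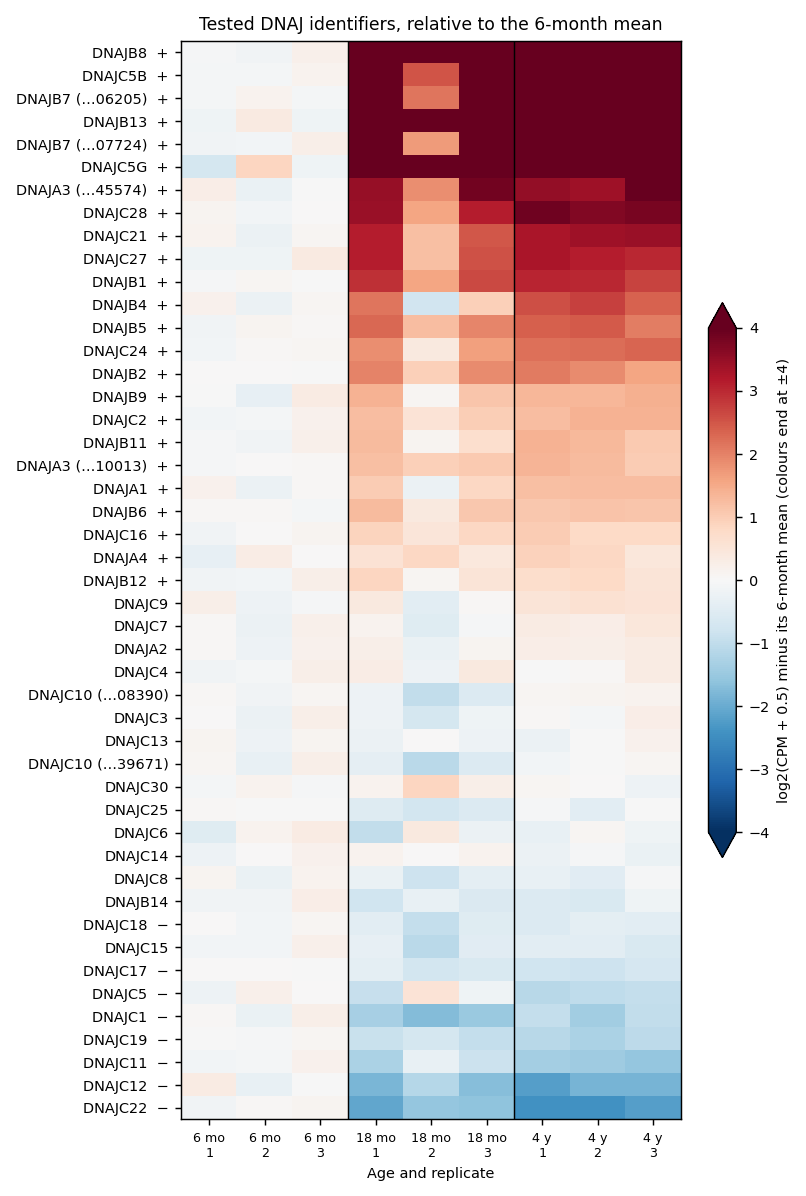
Level of the 47 tested DNAJ identifiers in each of the 9 libraries (columns, by age and replicate), as log2(CPM + 0.5) minus its mean over the 3 libraries of 6 months, ordered by log2 fold change at 4 years against 6 months, with + for the 24 called higher and − for the 8 called lower at 4 years. DNAJB8 stands at the top and DNAJC22 at the bottom, and replicate 2 of 18 months is paler than its fellow libraries in most of the upper rows.

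The members with the largest increases were those known from male germ cells in other mammals: DNAJB7, DNAJB8, DNAJB13, DNAJC5B and DNAJC5G, on 6 identifiers. All had at most 2.95 CPM at 6 months and had 42.4 to 277 CPM at 4 years. DNAJB8 (ENSBTAG00000006179), a class B protein that in human cells suppresses aggregation of polyglutamine proteins, had 0.0422, 0 and 0.137 CPM at 6 months, 170, 9.89 and 64.0 CPM at 18 months, and 272, 244 and 197 CPM at 4 years. The 3 ages did not overlap, and replicate 2 was the lowest library of 18 months. The libraries of 6 months held 4 estimated counts in all and those of 4 years 21245, a ratio of 4115 after scaling, with an exact 95% interval of 1607 to 15100 that covers counting error only. The difference was called with an adjusted p of 0.00011 (edgeR). DNAJB8 passed the filter on low counts only through the later ages, as did both DNAJB7 identifiers, DNAJB13, DNAJC5B and DNAJA3 (ENSBTAG00000045574). Their calls, which are among the 24 higher, are thus given as a description.

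DNAJB7 stood on 2 identifiers, and how reads shared between them were assigned is not given in the sources used here. ENSBTAG00000007724 had 0.169, 0.173 and 0.366 CPM at 6 months, 53.3, 1.88 and 17.3 CPM at 18 months, and 87.4, 73.4 and 54.9 CPM at 4 years. Its libraries of 4 years were all above those of 18 months, where replicate 2 was again lowest, and these were all above 6 months. The log2 fold change at 4 years against 6 months was 8.23 ± 1.22 (SE, adjusted p = 0.000363 in edgeR). The other identifier, ENSBTAG00000006205, had 2 estimated counts at 6 months, both in replicate 2, and 42.4, 63.0 and 43.6 CPM at 4 years, a ratio of 1736 with an interval of 480.4 to 14340 (adjusted p = 0.000262 in edgeR).

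DNAJB13 (ENSBTAG00000003682) is a component of the radial spoke of the sperm flagellum and of motile cilia. It had 0, 0.217 and 0 CPM at 6 months, 64.3, 10.6 and 33.9 CPM at 18 months, and 64.5, 56.8 and 88.6 CPM at 4 years. Replicate 1 of 18 months lay within the range of 4 years, and the other 18-month libraries lay below it. The ratio of 4 years to 6 months was 939.5 with an interval of 402.3 to 2894, and the adjusted p was 9e-05 (edgeR). FOXJ1, a regulator of motile cilia that is also a marker of ciliated duct epithelium, averaged 42.1 CPM at 4 years and 0.463 CPM at 6 months. The summed level of the 4 markers of that epithelium was 132 to 147 CPM at 4 years and 6.03 to 17.0 CPM at 6 months. Of the 3 such markers tested, 2 were called higher at 4 years and 1 was not called, with a log2 fold change of -0.91. Their part in the DNAJB13 result was not tested.

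The cysteine string proteins are palmitoylated vesicle chaperones, with DNAJC5 as the form of neurons and many tissues and DNAJC5B and DNAJC5G as forms found in testis of the mouse. DNAJC5B (ENSBTAG00000015229) had 0.0422, 0.0434 and 0.137 CPM at 6 months, 88.4, 2.77 and 32.6 CPM at 18 months, and 124, 118 and 112 CPM at 4 years. DNAJC5G (ENSBTAG00000018262) had 0.676, 2.95 and 1.19 CPM at 6 months, 252, 72.2 and 217 CPM at 18 months, and 277, 248 and 226 CPM at 4 years. DNAJC5 (ENSBTAG00000015796) had 83.6, 111 and 98.3 CPM at 6 months, 50.6, 143 and 86.6 CPM at 18 months, and 44.9, 48.3 and 49.7 CPM at 4 years. The 3 genes of this one branch thus went in both directions at 4 years: the ratio was 1623 for DNAJC5B (interval 695.2 to 4999), the log2 fold change was 7.28 ± 0.70 for DNAJC5G, and that of DNAJC5 was -1.04 ± 0.33 (adjusted p = 0.000218, 6.34e-05 and 0.0175 in edgeR). The DNAJC5 call was lost with library size alone (adjusted p = 0.0893) and without replicate 2 of 6 months (0.0557) or replicate 1 of 4 years (0.056). At 18 months, DNAJC5 in replicate 2 exceeded every library of 6 months, while DNAJC5 in replicate 1 was close to the level of 4 years.

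**Figure D2:**
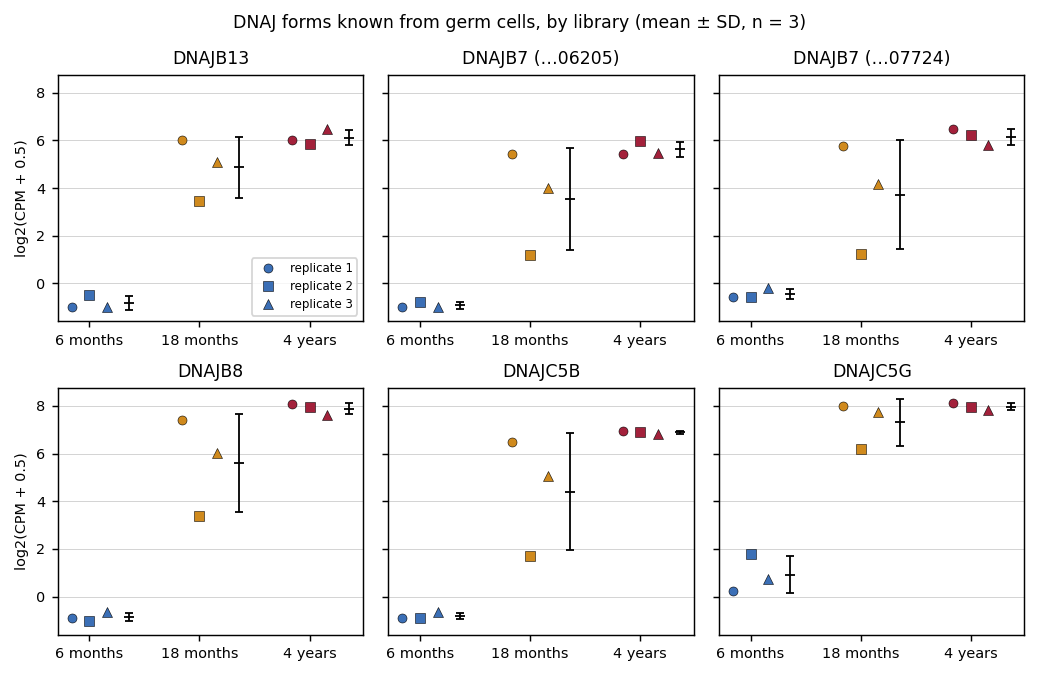
log2(CPM + 0.5) of the 6 identifiers of DNAJB7, DNAJB8, DNAJB13, DNAJC5B and DNAJC5G in each library at 6 months, 18 months and 4 years, with the mean and SD of each age (n = 3) as a bar to the right of its points. In every panel the 6-month libraries sit at the bottom, the 4-year libraries lie close together, and replicate 2 (square) is the lowest of the spread 18-month libraries.

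Together, these 6 identifiers held 0.0662% to 0.232% of the summed FPKM of the family in the libraries of 6 months. At 18 months they held 24.8%, 6.5% and 16.4% in replicates 1, 2 and 3, and at 4 years 30.1%, 28.6% and 27.0%. The summed FPKM of the whole family was 793 ± 34.1 at 6 months, 1840 ± 624 at 18 months and 2621 ± 36.2 at 4 years (SD, n = 3 each). The FPKM were used as deposited, without the scaling applied to CPM. In CPM the sum of the family was 2102 ± 153 at 6 months, 3303 ± 992 at 18 months and 4460 ± 188 at 4 years, a smaller relative difference. These sums are given as a description.

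Further gained members had low but measurable levels at 6 months. DNAJC28 (ENSBTAG00000009187), a little-studied member, had 3.46, 2.86 and 3.15 CPM at 6 months, 39.8, 10.3 and 31.9 CPM at 18 months, and 53.7, 46.6 and 50.7 CPM at 4 years. Its 3 ages did not overlap, and the log2 fold change at 4 years against 6 months was 3.99 ± 0.46 (adjusted p = 0.000115 in edgeR), a 15.9-fold difference. Of the others, DNAJC21, which takes part in maturation of the large ribosomal subunit, had a log2 fold change of 3.40, DNAJC27, which joins a Rab-like GTPase domain to a J domain, of 3.19, and DNAJC24, an enzyme cofactor in the synthesis of diphthamide on elongation factor 2, of 2.40.

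DNAJA3, the class A protein of mitochondria, was gained on both of its identifiers. ENSBTAG00000010013 had 51.3, 53.5 and 54.7 CPM at 6 months, 123, 104 and 109 CPM at 18 months, and 137, 128 and 107 CPM at 4 years, with a log2 fold change of 1.22 at 4 years. ENSBTAG00000045574 had 0.211, 0 and 0.0914 CPM at 6 months, 6.10, 1.68 and 8.20 CPM at 18 months, and 6.23, 5.75 and 8.86 CPM at 4 years. Both identifiers were higher in every library of 18 months and of 4 years than in any of 6 months. For ENSBTAG00000045574 the ratio of 4 years to 6 months was 66.6 with an interval of 32.1 to 166, and the adjusted p was 0.000349 (edgeR). Whether 1 symbol on 2 identifiers stands for 2 genes in yak was not settled from these files.

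Among the class A and B partners of HSP70 in the cytosol, 10 of 11 tested identifiers were higher at 4 years than at 6 months, none was lower, and DNAJA2 was not called (log2 fold change 0.27 ± 0.19). Of all genes 36.7% were higher and 37.2% lower, and the list was chosen with earlier results of these data known. The 10 include DNAJB8 and both DNAJB7 identifiers, which passed the filter on low counts only through the later ages. The count is thus given as a description. DNAJB1 (ENSBTAG00000016874), the main heat-inducible co-chaperone, had 92.6, 102 and 94.8 CPM at 6 months, 737, 290 and 602 CPM at 18 months, and 802, 782 and 635 CPM at 4 years. The highest library of 6 months was below the lowest of 18 months. DNAJB1 was 7.66-fold higher at 4 years than at 6 months (log2 fold change 2.94 ± 0.33, adjusted p = 0.00011 in edgeR). DNAJB6 (ENSBTAG00000000771), which like DNAJB8 suppresses polyglutamine aggregation in human cells, had 119, 118 and 108 CPM at 6 months, 279, 153 and 242 CPM at 18 months, and 246, 256 and 247 CPM at 4 years, a log2 fold change of 1.11 ± 0.22 at 4 years (adjusted p = 0.00177 in edgeR). The 18-month libraries of DNAJB6 lay on both sides of those of 4 years.

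DNAJA1 and DNAJB4 were gained at 4 years but not called at 18 months. DNAJA1 (ENSBTAG00000016265), a farnesylated class A protein whose loss disturbs spermatogenesis in the mouse, had 176, 132 and 159 CPM at 6 months, 315, 131 and 272 CPM at 18 months, and 357, 366 and 362 CPM at 4 years. DNAJB4 had 23.5, 17.8 and 22.1 CPM at 6 months, 95, 12.1 and 40.9 CPM at 18 months, and 127, 141 and 110 CPM at 4 years. In replicate 2 of 18 months both genes were below every library of 6 months, DNAJA1 only just, and in replicates 1 and 3 both were above them. The log2 fold change at 4 years against 6 months was 1.22 ± 0.30 for DNAJA1 (adjusted p = 0.00539 in edgeR) and 2.58 for DNAJB4. Without replicate 2, the log2 fold change of DNAJA1 at 18 months against 6 months was 1.04 (adjusted p = 0.000271 in edgeR), against 0.62 (0.0992) with all libraries. The other gained members of the group were DNAJB5 (2.43), DNAJB2 (1.89), a protein with ubiquitin-binding motifs known mostly from neurons, and DNAJA4 (0.73).

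Read per length, the order of the family differed between the ages. At 6 months the highest levels were those of DNAJA1 (82.9 ± 11.0 FPKM), DNAJA2 (81.1 ± 8.18), DNAJB6 (65.4 ± 4.92), DNAJC8 (59.9 ± 7.36) and DNAJC15 (57.7 ± 5.60). DNAJA1 and DNAJA2 overlapped in their libraries, as did DNAJB6, DNAJC8 and DNAJC15, while DNAJA2 and DNAJB6 did not. At 18 months DNAJB1 had the highest mean, 244 ± 93.3 FPKM. At 4 years they were those of DNAJB8 (336 ± 40.9 FPKM), DNAJB1 (319 ± 27.7), DNAJA1 (247 ± 11.7), DNAJB6 (210 ± 6.31) and DNAJC5G (145 ± 9.81; SD, n = 3 for all). DNAJB8 and DNAJB1 overlapped, with 293 to 375 FPKM and 287 to 338 FPKM, and so were not ordered by these libraries, whereas DNAJB1, DNAJA1, DNAJB6 and DNAJC5G did not overlap with one another.

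**Figure D3:**
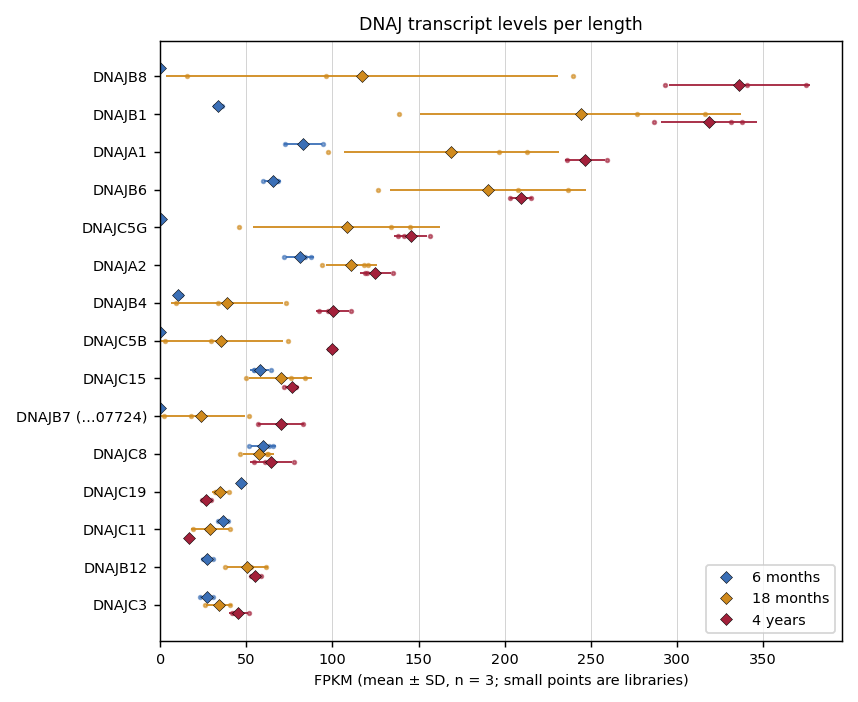
FPKM of the DNAJ identifiers that were among the 10 highest at 4 years or at 6 months, with the mean (diamond), SD (line) and the single libraries (points) at each of the 3 ages, n = 3 each. DNAJB8 has the highest mean at 4 years, 336 FPKM, and lies next to 0 at 6 months, while DNAJC19 and DNAJC11 are higher at 6 months than at 4 years.

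Of 10 tested identifiers of the endoplasmic reticulum, 4 were higher, 2 lower and 4 not called at 4 years against 6 months, or 40% higher and 20% lower, where 36.7% of all genes were higher and 37.2% lower. DNAJB9 (ENSBTAG00000046588), a partner of the lumenal HSP70 called BiP that is induced by the unfolded protein response, had 16.3, 13.1 and 20.9 CPM at 6 months, 43.7, 17.5 and 35.9 CPM at 18 months, and 42.2, 42.2 and 45.6 CPM at 4 years. Its log2 fold change at 4 years was 1.37 ± 0.32 (adjusted p = 0.00433 in edgeR). DNAJB11, a lumenal co-chaperone of BiP (1.25), DNAJC16 (0.88) and DNAJB12, a membrane protein of the degradation pathway (0.68, adjusted p = 0.0204 in edgeR), were also gained. The DNAJB12 call held in 10 of 14 alternatives and was lost without replicate 1 or 2 of 6 months or replicate 1 or 2 of 4 years (adjusted p = 0.0537 to 0.0734 in edgeR).

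DNAJC3 (ENSBTAG00000012065), an inhibitor of eIF2-alpha kinases and another partner of BiP, had 98.9, 83.2 and 115 CPM at 6 months, 84.4, 60.0 and 87.6 CPM at 18 months, and 101, 93.2 and 118 CPM at 4 years. The libraries of 6 months overlapped with those of both later ages, and DNAJC3 was not called in either comparison with 6 months. DNAJC1 (ENSBTAG00000033315), a membrane protein whose cytosolic side binds ribosomes, had 18.2, 14.8 and 20.8 CPM at 6 months, 6.76, 4.96 and 6.10 CPM at 18 months, and 9.02, 6.52 and 8.79 CPM at 4 years. Every 6-month library of DNAJC1 was above all others, and the log2 fold change was -1.59 ± 0.25 at 18 months and -1.15 ± 0.24 at 4 years (adjusted p = 0.000706 and 0.00239 in edgeR). DNAJC18 (-0.46 ± 0.18, adjusted p = 0.0393 in edgeR) was called in only 2 of the 14 alternatives, with adjusted p up to 0.382. BiP itself (HSPA5) was not called at 4 years (-0.42 ± 0.30).

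In mitochondria the gained identifiers were both of DNAJA3 and that of DNAJC28, and the lost ones were DNAJC11 and DNAJC19, among 8 tested. That is 37.5% higher and 25% lower, where 36.7% of all genes were higher and 37.2% lower. The DNAJA3 identifier ENSBTAG00000045574 passed the filter on low counts only through the later ages, so the share that was higher is given as a description. DNAJC11 (ENSBTAG00000011217), an outer membrane protein that binds the cristae junction complex, had 129, 133 and 157 CPM at 6 months, 57.7, 113 and 77.1 CPM at 18 months, and 54.4, 51.3 and 47.3 CPM at 4 years. DNAJC19 (ENSBTAG00000023513), a subunit of the import motor of the inner membrane, had 32.1, 31.2 and 34.5 CPM at 6 months, 17.4, 20 and 16.5 CPM at 18 months, and 14.8, 13.3 and 15.4 CPM at 4 years. In both genes the 3 ages did not overlap, and in both replicate 2 was the 18-month library nearest to 6 months. The log2 fold change at 4 years was -1.45 ± 0.24 for DNAJC11 and -1.17 ± 0.16 for DNAJC19 (adjusted p = 0.000663 and 0.000276 in edgeR). DNAJC15, which occupies the same position in the import motor as DNAJC19, was not called at 4 years (-0.49 ± 0.21, adjusted p = 0.0643 in edgeR).

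Of the members that act in the nucleus or on ribosomes, DNAJC21 and DNAJC2, the ribosome-associated co-chaperone of nascent chains (1.36), were gained, DNAJC17 was lost, and the spliceosomal DNAJC8 (-0.26) and the histone chaperone DNAJC9 (0.56) were not called. DNAJC17 (ENSBTAG00000013480), a protein with an RNA recognition motif that binds spliceosomes, had 18.5, 18.8 and 18.2 CPM at 6 months, 14.0, 10.9 and 11.9 CPM at 18 months, and 10.6, 10.3 and 11.4 CPM at 4 years. Its libraries of 6 months were all above the rest, with a log2 fold change of -0.78 ± 0.18 at 4 years (adjusted p = 0.00365 in edgeR). Among vesicle members outside the cysteine string proteins, the clathrin uncoating factor DNAJC6 (-0.18) and the endosomal DNAJC13 (-0.02) were not called. Further members that were not called at 4 years were DNAJC7 (0.34), a co-chaperone with tetratricopeptide repeats, DNAJC14 (-0.19), DNAJC25 (-0.16), DNAJB14 (-0.46), DNAJC4 (0.13), DNAJC30 (-0.04) and the identifiers of DNAJC10 (0.10 and -0.03).

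The 2 largest decreases were in members of low level. DNAJC22 (ENSBTAG00000016398), a membrane protein whose fly counterpart acts in endocytosis, had 3.93, 4.51 and 4.8 CPM at 6 months, 0.663, 1.16 and 1.10 CPM at 18 months, and 0.408, 0.413 and 0.554 CPM at 4 years. DNAJC12 (ENSBTAG00000010932), a co-chaperone of aromatic amino acid hydroxylases in human, had 5.83, 3.60 and 4.53 CPM at 6 months, 0.928, 1.81 and 1.07 CPM at 18 months, and 0.613, 0.884 and 0.910 CPM at 4 years. The libraries of 6 months were far above the others for both. The log2 fold change at 4 years was -3.26 ± 0.38 for DNAJC22 and -2.53 ± 0.41 for DNAJC12 (adjusted p = 0.000128 and 0.000562 in edgeR). The summed level of the 8 lost members was 190 ± 2.49 CPM at 4 years and 394 ± 25.6 CPM at 6 months (SD, n = 3 each), and that of the 24 gained identifiers 3275 ± 238 CPM and 718 ± 23.1 CPM. Both sets were chosen by their calls between these ages, so the direction of these sums follows from the choice.

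At 18 months against 6 months, 21 of the 47 identifiers were higher, 11 were lower and 15 were not called, where 32.7% of all genes tested were higher and 27.1% lower (edgeR). Libraries of these ages did not overlap for 33 identifiers, or 70.2%, and for 65.1% of all genes. By p, the leading increases were those of DNAJC5G, DNAJB13, DNAJB8 and DNAJB1, with a log2 fold change of 6.81 ± 0.69 for DNAJC5G and 2.49 ± 0.33 for DNAJB1 (adjusted p = 0.000111 and 0.00034). The leading decreases were those of DNAJC1, DNAJC22 (-2.17 ± 0.36), DNAJC19 (-0.86 ± 0.16) and DNAJC12 (-1.87 ± 0.40). Lower at 18 months, but not called at 4 years, were DNAJC15, DNAJC25 and both identifiers of DNAJC10, the disulfide reductase of the endoplasmic reticulum. These calls held in 1 of 14 alternatives for DNAJC15, 5 for DNAJC25, and 2 and 4 for DNAJC10, and all were lost without replicate 2 or replicate 3 of 18 months. Of the leading members, all but DNAJC19 were called in every alternative, each library left out included, and the DNAJC19 call was lost with library size alone (adjusted p = 0.0593 in edgeR). The count of higher members was 25 without replicate 2 of 18 months, 19 without replicate 1 and 19 without replicate 3, and the count of lower members was 6, 12 and 5. Without one library of 6 months there were 5 to 7 lower members, and without replicate 1 of 4 years 7. With library size alone as the scaling, 27 members were higher and 3 lower, and of all genes called 72.6% were higher, against 54.7% with the scaling used here. That scaling raised the median of all genes by 0.40 at 18 months and 0.29 at 4 years on the log2 scale, and the members' median lay 0.47 and 0.74 above it, against 0.49 and 0.74 with the scaling used here.

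The 18-month libraries can be placed between the other ages by setting the 6-month mean of a gene to 0 and its 4-year mean to 1 on the scale of log2(CPM + 0.5). Of the gained identifiers, 21 differed enough between these ages for a position, by at least 1 on that scale. Replicate 1 lay near the 4-year level throughout, at 0.82 to 1.14. Replicate 2 was the lowest of the 3 libraries for all 21, with a median of 0.39, and ranged more widely. In it, DNAJA3 (ENSBTAG00000010013, 0.80), DNAJC5G (0.75) and DNAJB13 (0.62) were past the middle, DNAJB8 (0.48) was near it, DNAJC5B (0.33) was short of it, and DNAJB9 (0.06), DNAJA1 (-0.19) and DNAJB4 (-0.30) were at or under the 6-month level. In the same library the 6 meiotic markers lay at 0.61 to 1.00 with a median of 0.84, and the 7 haploid markers at 0.31 to 0.70 with a median of 0.53. The lowest of these markers was AKAP4 (0.31), a protein of the sperm fibrous sheath. Of the 21 identifiers, 6 were below it, namely DNAJB9, DNAJA1, DNAJB4, DNAJB11 (0.09), DNAJC24 (0.17) and DNAJB7 (ENSBTAG00000007724, 0.26). A position on this scale also depends on the level at 6 months. In replicate 2, DNAJB8 had 9.89 CPM, between means of 0.0598 CPM at 6 months and 238 CPM at 4 years. DNAJB11 had 35.9 CPM in it, between means of 33.3 and 79.4 CPM. The order of genes with unlike levels at 6 months is thus not an order in time. These positions come from 1 library and are given as a description.

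**Figure D4:**
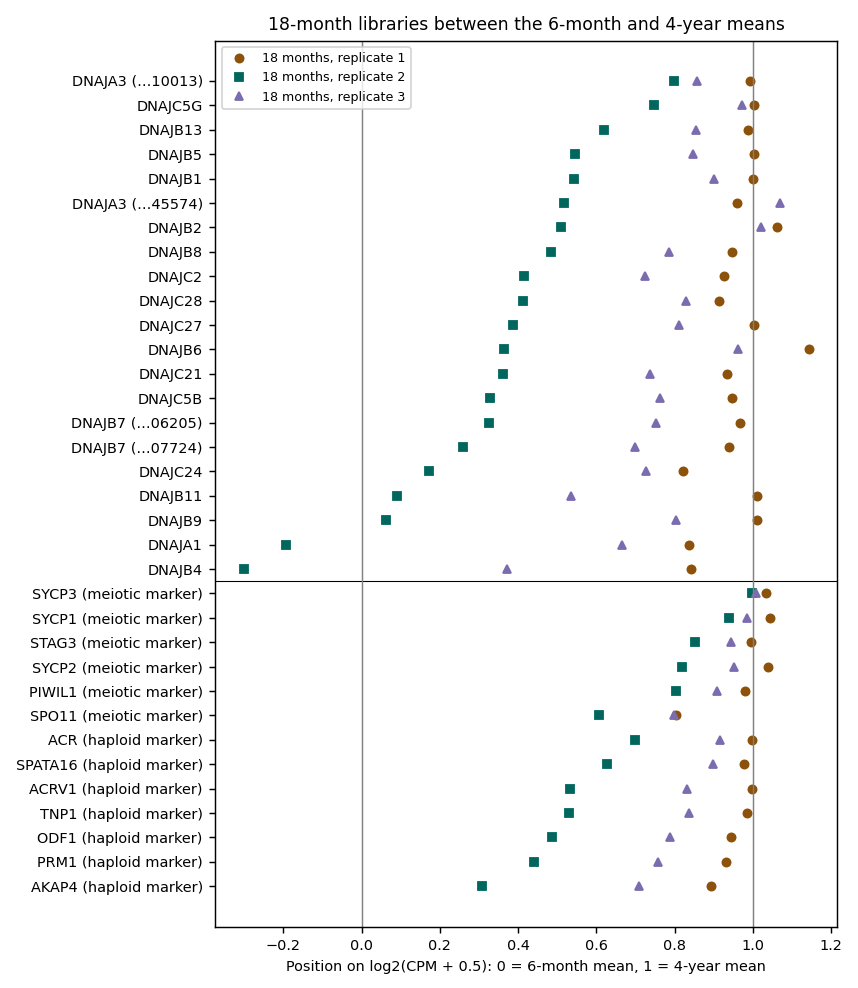
Position of the 3 libraries of 18 months between the 6-month mean (0) and the 4-year mean (1) on log2(CPM + 0.5), for the 21 gained DNAJ identifiers with at least 1 log2 unit between those ages (upper block) and for meiotic and haploid markers (lower block). Replicate 1 (circles) stays near 1, while replicate 2 (squares) runs from -0.30 for DNAJB4 to 0.80 for DNAJA3 (ENSBTAG00000010013).

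At 4 years against 18 months, none of the 47 identifiers was called in either direction (edgeR), where 0% of all genes tested were called higher and 0.00597% lower. At an unadjusted p under 0.05, 5 were higher and 3 lower in edgeR, and 9 were higher and 3 lower in DESeq2. The shares of all genes at an unadjusted p were not taken, so these counts are a description. After adjustment DESeq2 also called no member, while it called 1.09% of all genes tested higher and 4.06% lower. In edgeR without replicate 1 of 18 months, 13 identifiers were called higher and 3 lower. Of all genes tested in that fit, 13.2% were higher and 19.8% lower. Without replicate 2 no identifier was called. The 13 included DNAJB8, DNAJC5B and both DNAJB7 identifiers, with log2 fold changes of 2.52 to 2.90, and DNAJB4 (2.25), and the 3 lower were DNAJC22 (-1.30), DNAJC5 (-1.27) and DNAJC11 (-0.89). Both identifiers of DNAJC10 were also among the 13. With all libraries, those of 4 years did not overlap with those of 18 months for 23 identifiers, or 48.9%, and for 25.4% of all genes.

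Of 11 tested genes of the HSP70 family, which holds the partners of DNAJ proteins, 2 were higher and 6 lower at 4 years against 6 months. That is 18.2% and 54.5%. For this list and the lists below, 36.7% of all genes tested were higher and 37.2% lower. HSPA2, the HSP70 of meiotic and later germ cells in the mouse, had 11.7, 18.0 and 26.3 CPM at 6 months, 246, 127 and 202 CPM at 18 months, and 287, 285 and 266 CPM at 4 years, and its log2 fold change at 4 years was 3.90 ± 0.36. HSPA1L, the other testis form, had a log2 fold change of 6.39. The constitutive HSPA8, with which DNAJC5 works at vesicles, had 753, 749 and 869 CPM at 4 years against 3394, 2799 and 3311 CPM at 6 months and was called lower, and HSPA12A, HSPA12B, HSPA1A, HSPA9 and HSPA13 were lower as well. Of 14 tested identifiers of nucleotide exchange factors and HSP110 proteins, 8 were higher and 1, BAG2, was lower, with HSPA4L (7.29), BAG6 (2.67) and HYOU1 (1.89) leading. Of 7 further partners 1 was higher (TRAP1, 1.57) and 3 were lower, among them HSP90AB1 (-2.84). Among J-domain genes with other names, GAK (3.30), the second clathrin uncoating factor, was higher, HSCB (-1.88), which acts in iron-sulfur cluster transfer, was lower, and SEC63 was not called.

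The deposited count and FPKM of a gene together imply the length by which it was divided, and in some members that length differed between the ages. Of 38 members with at least 50 counts in every library, 6 had a ratio of 4 years to 6 months of 0.85 or less and none a ratio at or over the inverse of that value. The share at 0.85 or less was 15.8% of these members and 14.8% of 10851 genes, of which 2.12% were at or over the inverse. The largest shift was in DNAJC15, with 1472, 1495 and 1487 bases at 6 months, 1019, 1144 and 1114 at 18 months and 1009, 1018 and 1049 at 4 years, a ratio of 0.691. DNAJC21 (0.703), DNAJB11 (0.782), DNAJB4 (0.796), DNAJC5 (0.798) and DNAJC3 (0.799) followed, whereas DNAJA1 and DNAJC11 kept a ratio of 1. In DNAJC15 the units also differed in direction: it averaged 73.4 CPM at 4 years and 102.8 CPM at 6 months, but 76.4 FPKM at 4 years and 57.7 FPKM at 6 months. Of the 47 tested identifiers, 8 had opposite signs in the means of the 2 units at 4 years against 6 months, and none of these was called in that comparison. DNAJC15, DNAJC25 and DNAJC10 (ENSBTAG00000039671) were among the 8 and were called lower at 18 months against 6 months. That DNAJC10 identifier, DNAJC8, DNAJC14 and DNAJC30, also among the 8, kept a length ratio of 1, so their signs differed without a shift in length. The units also differ in scaling, since only CPM uses the TMM factors, which were 0.809 to 0.882 at 6 months and 1.01 to 1.10 at 4 years.

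Back-splice reads gave a separate readout of the same genes from the same libraries. A back-splice joins the end of an exon to the start of an earlier one and marks a circular RNA (circRNA). The deposited circRNA table held 130 circRNAs of 29 DNAJ genes with 3318 reads in all, of which 78.3% belonged to DNAJB6, DNAJC16 and DNAJC13. DNAJ circRNAs made up 0.142% to 0.174% of circRNA reads at 4 years and 0.273% to 0.288% at 6 months. Only 7 of them had enough reads to be tested, among 3877 circRNAs.

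At 4 years against 6 months, none of these 7 was higher, where 15.2% of all circRNAs tested were, and 2 were lower, where 5.80% were (edgeR). One was a circRNA of 213 bases from DNAJC13 (chromosome 1, 137068354 to 137068733, minus strand, coordinates as deposited), with 12, 12 and 22 reads at 6 months, 0, 1 and 0 at 18 months and none at 4 years. It was at least 12.2-fold lower at 4 years than at 6 months, setting 4 years to a floor of 3 reads over the group (adjusted p = 0.0227 in edgeR). The other lies at DNAJC24 (chromosome 15, 62218977 to 62220229, minus strand) and is typed as antisense in the deposited table. Whether the gene counts used strand is not given in the sources used here, so sense and antisense reads at DNAJC24 cannot be told apart in them. It had 45, 37 and 31 reads at 6 months, 5, 5 and 13 at 18 months, and 0, 3 and 5 at 4 years, a log2 fold change of -3.38 ± 0.93 at 4 years (adjusted p = 0.0312 in edgeR). Both circRNAs passed the filter on low counts only through the libraries of 6 months, so their calls are given as a description. Both calls were lost without any one library of 6 months and without replicate 1 or 2 of 4 years. Without replicate 3 of 4 years the DNAJC24 circRNA alone was called. At 18 months against 6 months none of the 7 was called, where 4.72% of all circRNAs tested were higher and 0.542% lower. With no filter on low counts a DNAJC3 circRNA was called higher, having 0 reads in every library of 6 months, 8, 2 and 8 at 18 months, and 20, 5 and 6 at 4 years.

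Reads summed per host gene, a choice made after the data were seen, could be tested for 6 DNAJ hosts. DNAJB6 had 265, 238 and 159 back-splice reads at 6 months, 98, 194 and 217 at 18 months, and 29, 147 and 58 at 4 years. The libraries of 4 years were all below those of 6 months, and the log2 fold change was -1.43 ± 0.47 (adjusted p = 0.0344 in edgeR), while the DNAJB6 gene count was higher at 4 years by 1.11. Reads at DNAJC24, of which the antisense circRNA gave 144 of 152, were lower (-2.70 ± 0.77, adjusted p = 0.0192 in edgeR) while the gene count was higher by 2.40. The reads at DNAJC24 passed the filter only through the libraries of 6 months, so they are given as a description. DNAJC5B had no back-splice reads at 6 months, 15, 0 and 5 at 18 months, and 11, 12 and 14 at 4 years, at least 13.4-fold higher at 4 years than at 6 months with a floor of 3 reads over the group. It passed the filter only through the later ages, so its reads are given as a description. Of all hosts tested, 17.5% were higher and 13.7% lower. At 18 months against 6 months 1 of the 6 hosts, DNAJC24, was lower (-2.56 ± 0.75, adjusted p = 0.0451 in edgeR) and none was higher, where 2.84% of hosts were lower and 8.10% higher. That call was lost when any one library was left out except replicate 1 of 4 years (adjusted p = 0.0593 to 0.137 where lost, in edgeR). At 4 years the DNAJC24 call was lost without replicate 1 of 6 months (0.0611) or replicate 3 of 4 years (0.0557). The DNAJB6 call was lost without any one library of 6 months, replicate 3 of 18 months, or replicate 1 or 3 of 4 years (adjusted p = 0.0565 to 0.113 in edgeR). DNAJB14, DNAJC13 and DNAJC16 were not called. Whether the gene and circRNA differences in DNAJB6 differ from each other was not tested.

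**Figure D5:**
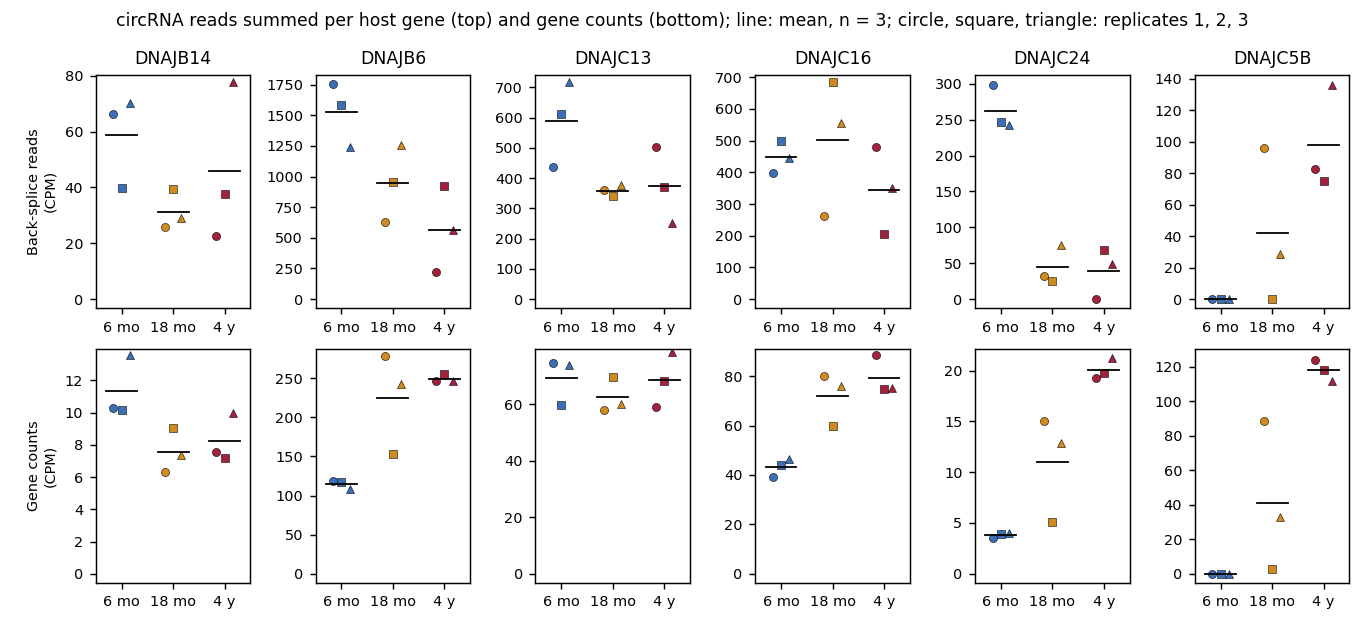
Back-splice reads summed per host gene (top) and gene counts (bottom), both as CPM, of the 6 tested DNAJ hosts in each library at 6 months, 18 months and 4 years, with the mean of each age (n = 3) as a line. At 4 years against 6 months DNAJB6 is lower in the top row and higher in the bottom one, and DNAJC5B is higher in both.

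In the authors' deposited tables of differing genes, which list fold changes of at least 2, 28 DNAJ identifiers stood for 4 years against 6 months, 25 higher and 3 lower at 4 years. That list held 10565 genes in all, where the gene table held 22183 genes and 54 DNAJ identifiers. Of the DNAJ identifiers listed in the authors' deposited table, 27 were called in the same direction here, and the exception was DNAJC9. The authors' deposited table for 18 months against 6 months held 23 DNAJ identifiers among 7668 genes. Of these, 20 were higher and 3 lower at 18 months, all called in the same direction here. The one for 4 years against 18 months held no DNAJ identifier among 247 genes.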

How the data were processed

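Estimated counts of 9 testis libraries, deposited by the authors with FPKM for 22183 genes, were used, with 3 libraries for each age. Per the submitters' processing notes, StringTie 1.3.4, HISAT2 2.1.0 and fastp 0.18.0 were involved and UMD3.1 was a genome build, with no role stated, and the counting program is not given in the sources used here. Read strand is not stated. The circRNA table holds counts of back-splice reads as deposited by the authors. The log2 ratios and the adjusted p-values (FDR) of the deposited comparison tables are the authors', and those tables against 4 years give the earlier age over the later, per the file headers. The miRNA tables and circRNA comparison tables were not used here.

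Counts were rounded (3137 genes had values that were not whole), filtered with filterByExpr, scaled with TMM and fitted together with edgeR 4.0.16 under R 4.3.3, age being the only factor over 9 libraries, leaving 6 residual degrees of freedom. glmQLFTest gave the tests, adjusted by Benjamini-Hochberg over all 16742 genes at 0.05. SE is the log2 fold change divided by the square root of F. Fold changes are the later age over the earlier. For 5 identifiers with 2 to 7 counts at 6 months, ratios with exact conditional 95% intervals replace fitted folds. The implied length is the count divided by FPKM, relative to the library. The fit was tested on simulated data. DESeq2 1.42.0 was an alternative.

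The family, its lists and the rule for named genes were chosen with earlier results of these data known. The rule takes 11 symbols always, the 8 members with the largest changes in each direction at 4 years, and 4 per direction in the other comparisons. Values per library of DNAJB4 and of the first DNAJA3 identifier were added after they were seen. No sequences were printed.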

Additional observations from a re-analysis of the deposited data

How the results depend on the processing

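At 4 years against 6 months, the counts of higher and lower members stayed within 1.5 times of those reported under all 14 alternatives, and 29 of the 32 calls held in every one, the exceptions being DNAJB12, DNAJC5 and DNAJC18. At 18 months against 6 months, 21 of 32 calls held in every alternative. The lower members there numbered 6 with DESeq2-type (RLE) size factors, 3 with library size alone and 5 to 12 when single libraries were left out. At 4 years against 18 months, leaving out single libraries gave 0 to 13 higher and 0 to 3 lower members, all of them without replicate 1 of 18 months. For circRNAs at 4 years against 6 months, no filter on low counts gave 1 higher and 1 lower. Reads summed per host gene gave 1 higher, DNAJC5B, which passed the filter only through the later ages. Leaving out single libraries gave 0 to 2 lower. The sign of DNAJC3, never called, turned at 18 months with library size alone (0.0398) and at 4 years without replicate 2 of 6 months (-0.0423) or replicate 3 of 4 years (-0.0258), within a range of -0.0423 to 0.197 when single libraries were left out. That of DNAJC5 at 18 months, also never called, turned with RLE size factors (0.0135), library size alone (0.363), DESeq2 (0.0163), and without replicate 2 of 6 months (0.0380) or replicate 1 of 18 months (0.234), within a range of -0.393 to 0.234. RLE size factors raised the median of all genes by 0.10 at 18 months and 0.18 at 4 years. The cause of these changes was not tested. Replicate numbers were not taken as pairs, since each age had its own animals. Deviations of same-numbered libraries correlated at -0.106 to 0.0944, and those of differently numbered libraries at -0.148 to 0.145. With so few libraries these values cannot exclude a batch shared by same-numbered libraries. With the replicate number as a block, 24 members were higher and 7 lower at 4 years against 6 months, 20 and 10 at 18 months against 6 months, and 0 circRNAs were lower. Members near 0 at 6 months have folds set by a few counts, and most DNAJ circRNAs had too few reads for a test.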
